A study of Oncorhynchus mykiss with 8 samples.

Results

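Parvalbumin 2 and parvalbumin beta-2 were followed through white muscle of large and small rainbow trout. They were read by 2 of the 43603 probes on a 2-colour Agilent salmonid array, which was built from expressed sequences of Atlantic salmon. The probes, A_05_P423182 for parvalbumin 2 and A_05_P429727 for parvalbumin beta-2, were picked because their transcripts were much higher in small fish in these same data. Their ratios between large and small fish are therefore given as a description, without a test. The names come from the study's own gene lists.

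Parvalbumins are small EF-hand proteins that bind calcium in the cytosol. In fast muscle fibres they take up calcium after a contraction and so speed relaxation, and they are among the most abundant soluble proteins of fish white muscle, where they are also the main fish allergen. Fish carry several parvalbumin genes, which are usually grouped into alpha and beta lineages.

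The fish were Lyndon strain rainbow trout from a Sept. and a Dec. lot, reared at one station. Each lot came from several females crossed to a single male, with different females and a different male for each lot. The lots are named for the month of spawning. They were sampled at a similar age, the Sept. lot in December and the Dec. lot in February. Lot therefore cannot be told apart from sire, dams, sampling date or day length. From each family the 2 heaviest and the 2 lightest juveniles were taken, both sexes were present in the pools, and each pool held muscle mRNA of 5 fish of a size class. A large and a small pool formed a pair, with 2 pairs per lot. A pair was read on an array with 1 size in Alexa Fluor 555 and the other in Alexa Fluor 647, and on a second array with the dyes exchanged, giving 8 arrays. The muscle was a plug of white muscle taken away from the red muscle and freed of skin.

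Values are log2(large/small), so a negative value is higher in small fish and -1 is a 2-fold difference. Which size stands on top of the deposited ratio is not labelled, so this direction is likely rather than stated. It rests on 966 of 966 named muscle listings of the study having the listed sign when the swapped arrays were read as already turned, against 652 of 966 when they were read as not yet turned. The listings were made from these same arrays, so they settle only how the columns are read. Swapped arrays were made from one pair of RNA pools and were averaged to 1 replicate, which leaves n = 2 pool pairs in a lot. Only ratios were analysed, so no level of a parvalbumin or of a muscle marker can be given, and in pooled tissue fewer cells of a type and less RNA per cell cannot be told apart. Between 41909 and 43249 probes had a value on an array, with array medians of -0.03 to 0.02.

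Parvalbumin 2 lay below 0 on all 8 arrays. In the first Sept. pool pair it read -4.54 with large fish in Alexa 555 and -2.59 with large fish in Alexa 647. In the second Sept. pair it read -2.21 and -1.65 in the same order of dyes. All 4 Sept. arrays thus showed at least 3.15-fold more parvalbumin 2 in small fish, and the highest array showed 23.2-fold more. In the first Dec. pair it read -0.43 and -3.55, and in the second Dec. pair -2.26 and -0.16. The Dec. arrays ran from 1.12-fold to 11.7-fold and overlapped the whole Sept. range except its lowest array.

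Parvalbumin beta-2 also lay below 0 on all 8 arrays. It read -3.08 and -1.94 in the first Sept. pair and -1.60 and -0.77 in the second, again with large fish in Alexa 555 given first. In the Dec. lot it read -0.83 and -3.32 in the first pair and -1.94 and -0.21 in the second. The arrays with the smallest ratios were the same for both parvalbumins in the Dec. lot, namely the Alexa 555 array of pair 1 and the Alexa 647 array of pair 2. Of all probes, 0.486% were higher in small fish on every array and 0.54% higher in large fish. Both parvalbumins were among those higher in small fish, which their choice on these same arrays makes more likely but does not fix.

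**Figure D1:**
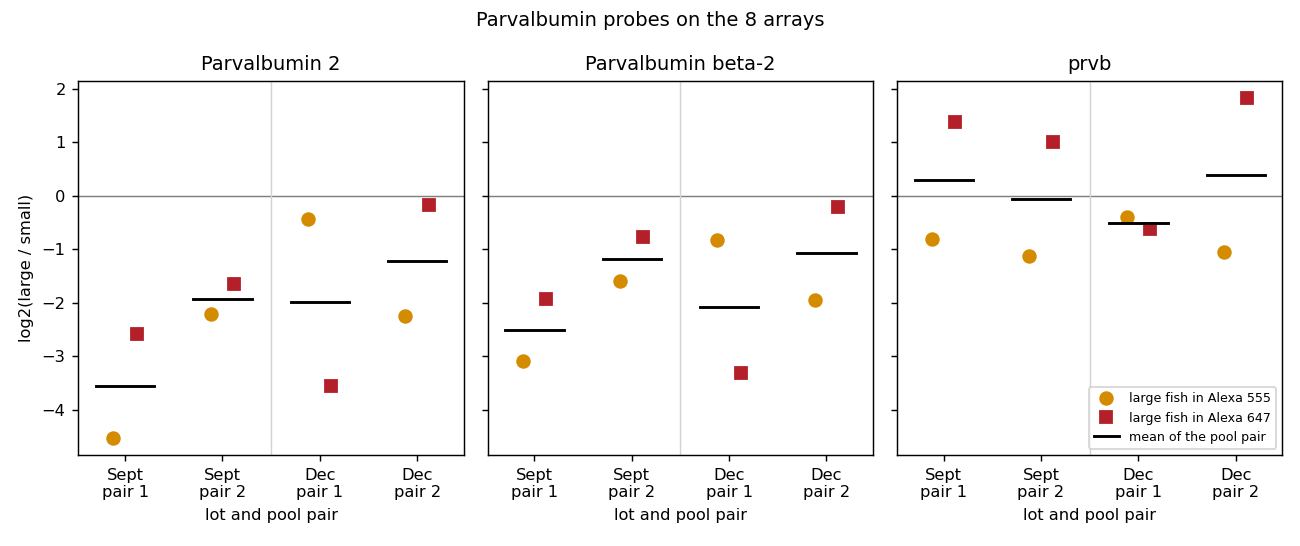
Each point is 1 array, plotted as log2(large/small) by lot and pool pair, with the dye of the large fish as colour and shape and the mean of a pool pair as a bar. Parvalbumin 2 and parvalbumin beta-2 lie below 0 on all 8 arrays, from -4.54 to -0.16 and from -3.32 to -0.21, while the prvb probe lies on both sides of 0.

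Averaged over the swap, parvalbumin 2 was 11.8-fold and 3.82-fold higher in small fish in the Sept. pool pairs and 3.97-fold and 2.31-fold higher in the Dec. pairs. Parvalbumin beta-2 was 5.69-fold and 2.27-fold higher in the Sept. pairs and 4.22-fold and 2.11-fold higher in the Dec. pairs. The lots overlapped for both probes, since the first Dec. pair lay below the second Sept. pair. In both lots the first pair had the larger ratio, but the labels do not say which sizes of fish a pair number stands for.

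The lot mean of parvalbumin 2 was -2.75 ± 0.44 (SE of limma's fit, n = 2 pool pairs) in the Sept. lot, or 6.72-fold, and -1.60 ± 0.44 in the Dec. lot, or 3.03-fold. The mean of parvalbumin beta-2 was -1.85 ± 0.41 in the Sept. lot, or 3.59-fold, and -1.58 ± 0.41 in the Dec. lot, or 2.98-fold. These SEs rest on an estimate of spread shared by both lots and drawn towards that of all probes. The SD of the pool pairs was 1.15 (Sept.) and 0.55 (Dec.) for parvalbumin 2, and 0.94 and 0.71 for parvalbumin beta-2. Counted from the probe highest in small fish, parvalbumin 2 stood at position 1 of 41524 for Sept. and 17 of 39770 for Dec., and parvalbumin beta-2 at 5 and 18. A mean at least 2-fold higher in small fish was seen for 0.0506% of probes in Sept. fish, 0.184% in Dec. fish and 0.0104% in both. Nothing can be read from these shares about the parvalbumins, which were chosen on the same values.

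Single pool pairs and arrays weighed on these means. Without the first Sept. pool pair the Sept. mean was -1.93 for parvalbumin 2 and -1.18 for parvalbumin beta-2. Without the Dec. array of pair 1 with large fish in Alexa 647, the Dec. mean was -0.82 for parvalbumin 2 and -0.95 for parvalbumin beta-2. On that array the sign was turned for 66.0% of 8509 probes. These had a mean over the remaining Dec. arrays of at least 1.2-fold with 1 sign throughout. Measured in the same way, the share was 19.4% to 41.2% on the other Dec. arrays and 48.2% to 55.5% on the Sept. arrays. Both parvalbumins had their lowest Dec. values on that array, at -3.55 and -3.32. Their choice on these same arrays makes such low values more likely. Read as not yet turned, the swapped arrays would give parvalbumin 2 means of -0.63 and 0.26 in the Sept. and Dec. lots, and parvalbumin beta-2 means of -0.49 and 0.19.

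The Dec. minus Sept. difference was 1.15 ± 0.63 for parvalbumin 2 and 0.27 ± 0.58 for parvalbumin beta-2. Of all probes, 0.676% differed more between the lots than parvalbumin 2 and 27.1% more than parvalbumin beta-2. Without the first Sept. pair the differences were 0.33 and -0.39, so for parvalbumin beta-2 the sign turned. No test was made, because the values of each lot had chosen the probes.

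**Figure D2:**
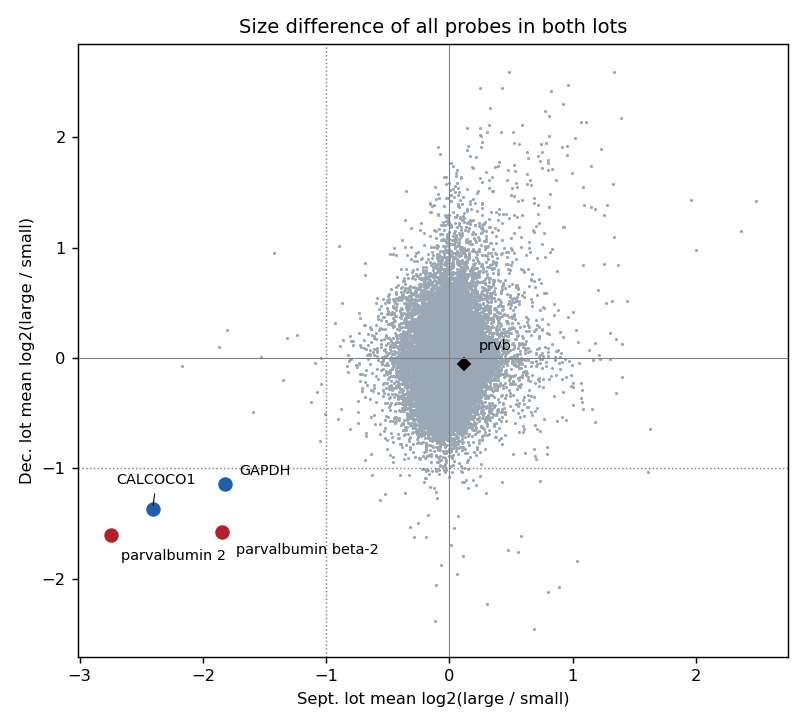
Each grey point is 1 of the 38488 probes measured on all 8 arrays, at its Sept. and Dec. lot mean of log2(large/small), with dotted lines at a 2-fold difference. The lower left corner past both lines holds 4 probes, namely both parvalbumins, CALCOCO1 and GAPDH.

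With the swapped arrays read as already turned, the difference between the arrays of a swap holds no effect of size, and it was tested apart from the means that chose the probes. Under the other reading this difference would be the size effect itself. The study had also listed these probes by a p-value, which depends on the spread of replicates. The swap difference may therefore not be wholly free of their choice. For parvalbumin 2 the arrays of a swap lay 1.95, 0.561, 3.13 and 2.09 apart on the log2 scale, in the order Sept. pair 1, Sept. pair 2, Dec. pair 1 and Dec. pair 2. These gaps were larger than those of 99.1%, 81.3%, 99.7% and 99.3% of probes. For parvalbumin beta-2 the gaps were 1.15, 0.824, 2.49 and 1.74. In the Dec. lot, these gaps were wider than those between the means of the 2 pool pairs, which were 0.779 for parvalbumin 2 and 1.00 for parvalbumin beta-2. In the Sept. lot the means of the pool pairs differed by 1.63 and 1.33, which only the gap of pair 1 for parvalbumin 2 exceeded. A gap between single arrays holds more array noise than a gap between means of arrays, so the measures are unlike.

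The gaps had no single direction. The ratio was higher with large fish in Alexa 647 in 3 of 4 pool pairs for both parvalbumins, and lower in the first Dec. pair. The dye part, which is the swap difference divided by 2, averaged 0.18 ± 0.45 for parvalbumin 2 (limma, adjusted p = 0.888, n = 4 pool pairs) and 0.15 ± 0.36 for parvalbumin beta-2 (adjusted p = 0.881). By limma 0 of 38488 probes passed at an adjusted p of 0.05, and 9.42% had an unadjusted p of up to 0.05. Without the first Dec. pair the dye part was 0.77 ± 0.17 for parvalbumin 2 (limma, adjusted p = 0.288) and 0.62 ± 0.11 for parvalbumin beta-2 (adjusted p = 0.211). Over all probes the correlation between the arrays of a swap was -0.19, -0.12, -0.28 and 0.50 in the same order of pool pairs.

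The ratios of both parvalbumins were set side by side from array to array. Their root mean square difference over the 8 arrays was 0.710, and each was the other's nearest probe among 38487. The median probe lay 2.58 from parvalbumin 2 and 2.01 from parvalbumin beta-2, which is about as far as each lay from 0 (2.57 and 2.00). Both were chosen for ratios that few probes reach, so their nearness by this measure follows in part from the choice. Pearson's r between them was 0.94 and Spearman's rho 0.93 over 8 arrays, which come from only 4 pool pairs and share arrays and normalisation, so no p is given. By r alone, 23 probes were closer to parvalbumin 2 and 6 closer to parvalbumin beta-2.

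Parvalbumin 2 minus parvalbumin beta-2 was -1.46, -0.65, -0.62 and -0.88 on the Sept. arrays, and 0.41, -0.23, -0.31 and 0.04 on the Dec. arrays. All 4 Sept. arrays lay below all 4 Dec. arrays. Over pool pairs the mean was -0.90 with an SD of 0.214 for Sept. and -0.024 with an SD of 0.157 for Dec. fish. The lots lay -0.88 apart. This comparison was chosen after the values were seen and uses the values that chose the probes, so it is a description with no test.

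**Figure D3:**
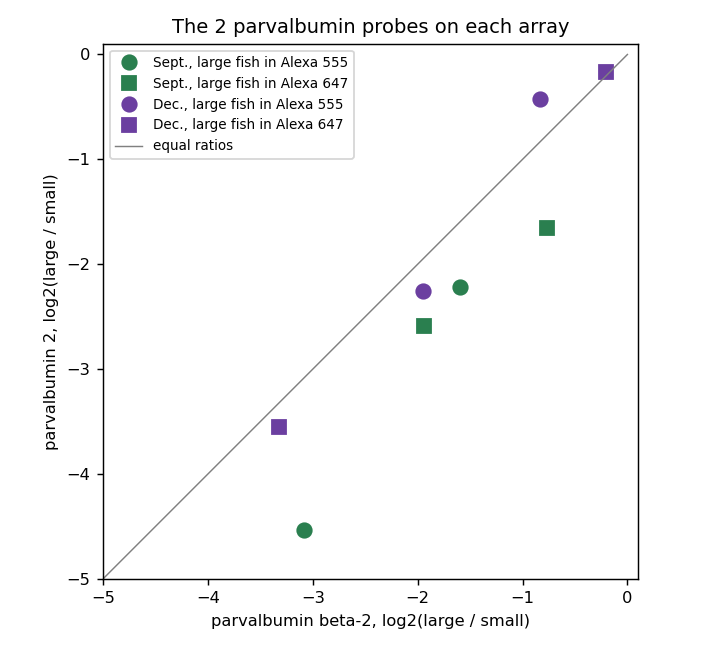
Each point is 1 array, with parvalbumin beta-2 on the horizontal and parvalbumin 2 on the vertical axis, both as log2(large/small), coloured by lot and shaped by the dye of the large fish. The 4 Sept. arrays lie below the line of equal ratios by 0.62 to 1.46, and the Dec. arrays lie within 0.41 of it.

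Among the 1494 probes with a name, the only other parvalbumin probe was prvb (A_05_P332207). Parvalbumin probes without a name could not be found in this way. The prvb probe is named by symbol in the platform annotation and was not on the study's muscle lists. It read -0.81, 1.39, -1.13 and 1.02 on the Sept. arrays, and -0.40, -0.62, -1.04 and 1.83 on the Dec. arrays, pair by pair with Alexa 555 first. It was thus on both sides of 0 in each lot. Its lot means were 0.12 ± 0.24 in the Sept. lot (limma, adjusted p = 0.9996) and -0.058 ± 0.24 in the Dec. lot (adjusted p = 0.954), n = 2 pool pairs each. Its dye part was 0.88 ± 0.26, positive in 3 of 4 pool pairs (limma, adjusted p = 0.398). The prvb probe lay 2.55 from parvalbumin 2 and 2.00 from parvalbumin beta-2 by root mean square difference, about as far as the median probe.

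The RefSeq annotation of the rainbow trout genome lists 3 parvalbumin genes by symbol, pvalb1, pvalb2 and pvalb9, the last 2 being neighbours. The array files pair none of the 3 probes with these genes, and the accession of prvb was not among the annotation's transcripts. The array was built from Atlantic salmon sequences, whereas the RNA and the annotation were of rainbow trout. What this means for the match of probes to genes was not tested. Probe sequences were not used here. Related parvalbumin transcripts may bind the same probe, so how far the probes measure separate genes was not tested.

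Besides each other, both parvalbumins had the same 4 nearest named probes. CALCOCO1 (A_05_P276634), a coiled-coil protein with calcium binding in its name, lay 1.16 from parvalbumin 2 and 1.15 from parvalbumin beta-2. GAPDH, the glycolytic enzyme glyceraldehyde-3-phosphate dehydrogenase, lay 1.17 from parvalbumin 2 and 0.768 from parvalbumin beta-2. RBM45, an RNA-binding protein, and eukaryotic translation initiation factor 5b, which helps join the ribosomal subunits, followed at 1.75 and 1.80 from parvalbumin 2. No unnamed probe was nearer to either than the other parvalbumin.

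GAPDH was below 0 on 8 of 8 arrays, from -2.53 to -0.25, with means of -1.82 ± 0.20 for Sept. and -1.14 ± 0.20 for Dec. fish. CALCOCO1, which in mammals is known as a transcriptional coactivator and autophagy receptor, had means of -2.41 ± 0.21 for Sept. and -1.37 ± 0.21 for Dec. fish. It was below 0 on 7 of 8 arrays and read 0.76 on the Dec. array of pair 1 with large fish in Alexa 555. That was also the array on which parvalbumin 2 had one of its 2 smallest ratios. These probes were picked for their likeness, so their values are a description.

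The list of calcium-binding and calcium-handling probes was taken by name, so it includes CALCOCO1 and calcium binding and coiled-coil domain like. Its probes besides parvalbumin 2 and parvalbumin beta-2 lay on both sides of 0. Of 16 such probes besides the parvalbumins 2 and beta-2, prvb included, 5 lay above and 11 below 0 among Sept. fish, the median being -0.12 against -0.0051 over all probes. In the Dec. lot 6 of 15 lay above and 9 below 0, with a median of -0.065 against -0.012. By limma 0 passed at an adjusted p of 0.05 in either lot, where 0% of all probes did, and the smallest adjusted p was 0.167 in the Dec. lot. At an unadjusted p of up to 0.05 there were 5 Sept. and 10 Dec. probes, against 3.57% and 15.4% of all probes. With a fold of at least 1.2 added, 1 of them was higher in large and 4 in small Sept. fish, where 1.16% and 1.63% of all probes (2.79% together) passed. For Dec. fish these were 4 and 6, where 6.54% and 7.59% of all probes (14.1% together) passed. The study had listed 12 of the 16 for muscle on these arrays, so these counts are not independent evidence. The 4 it had not listed had medians of -0.053 and 0.24. Of these 4, 0 for Sept. and 1 for Dec. fish had an unadjusted p of up to 0.05 by limma.

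Among calcium sensors, calmodulin lay below 0 on 8 of 8 arrays, with means of -0.38 ± 0.29 for Sept. and -0.65 ± 0.29 for Dec. fish. Calcium calmodulin-dependent protein kinase iv, a kinase that calmodulin activates, also lay below 0 on 8 of 8 arrays, at -0.40 ± 0.08 and -0.28 ± 0.08. A second kinase of this family, ii delta 2, read -0.86 ± 0.08 for Sept. and 0.16 ± 0.08 for Dec. fish. Its Sept. arrays read -0.32 and 0.06 with large fish in Alexa 555, and -1.45 and -1.75 with large fish in Alexa 647. The SE is of means over a swap and does not show this gap. Calmodulin and both kinases missed the adjusted threshold in both lots.

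Sarcalumenin precursor, a calcium-binding protein of the sarcoplasmic reticulum, read -0.0032 ± 0.10 for Sept. and -0.41 ± 0.10 for Dec. fish. Calcium channel flower homolog read -0.14 ± 0.10 and -0.42 ± 0.10. Calcium binding and coiled-coil domain like read -1.57 ± 0.09 in the Sept. lot. Its Sept. arrays read -2.45 and -1.23 with large fish in Alexa 555, and -0.81 and -1.79 with large fish in Alexa 647. The SE is of means over a swap and does not show this spread. The probe was not measured on all 4 Dec. arrays. It read 0.18 and -1.43 in Dec. pair 1 and -1.26 on the Alexa 555 array of Dec. pair 2.

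The remaining calcium-binding proteins went both ways, and none passed the adjusted threshold. Ictacalcin, an S100-like protein of epithelia that is also counted among the skin probes below, read 0.72 ± 0.14 for Sept. and 1.39 ± 0.14 for Dec. fish. Its Sept. arrays read -0.44 and -0.17 with large fish in Alexa 555, and 1.43 and 2.035 with large fish in Alexa 647. These SEs are of means over a swap, so they do not show the gap between its arrays. Calcium and integrin-binding protein 1 read 0.34 ± 0.23 and 1.04 ± 0.23, and grancalcin 0.12 ± 0.10, with 1 of 2 Sept. pool pairs below 0, and 0.71 ± 0.10. On the Sept. arrays grancalcin read -0.79 and -0.31 with large fish in Alexa 555, and 0.72 and 0.87 with large fish in Alexa 647. The S100 probes differed among themselves in the Dec. lot, with s100 calcium binding protein v2-like at 0.53 ± 0.10 and protein s100-a5-like at -0.57 ± 0.19, against -0.10 ± 0.10 and -0.13 ± 0.19 in the Sept. lot. Recoverin-like read 0.021 ± 0.09 and -0.50 ± 0.09. Calcipressin-2-like isoform 2, a regulator of calcineurin, read -0.0055 ± 0.09 and -0.065 ± 0.09. Calcineurin-binding protein cabin-1, another such regulator, read -0.24 ± 0.31 and 0.56 ± 0.31.

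**Figure D4:**
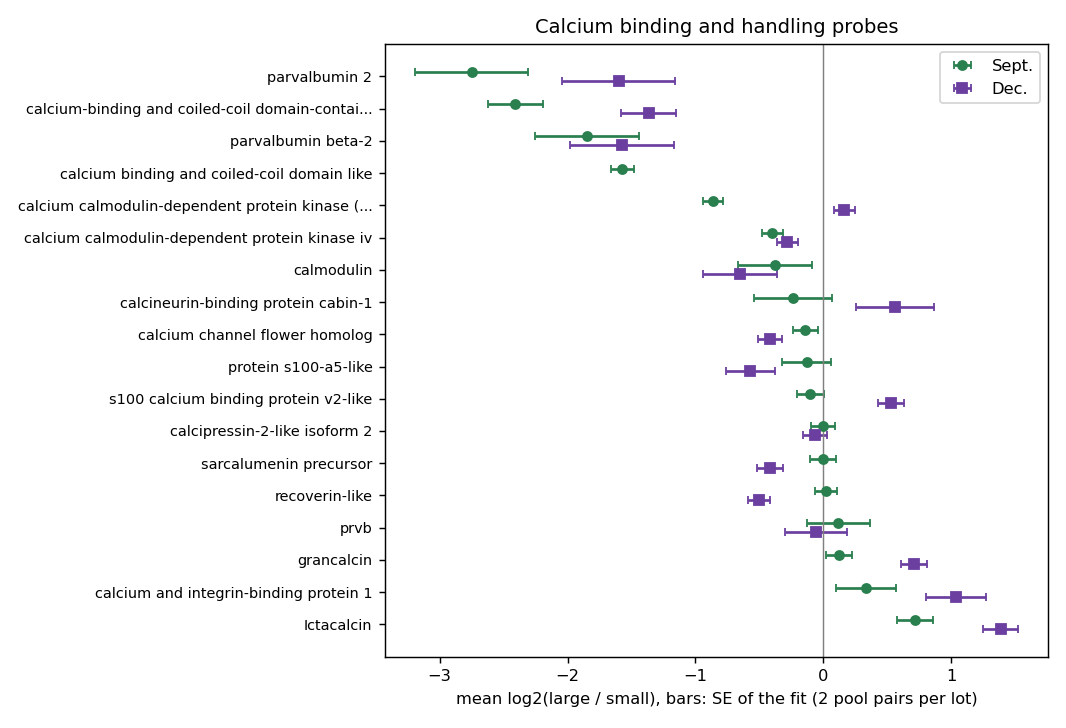
Lot means of log2(large/small) for the 18 calcium-binding and calcium-handling probes, with bars of the SE of limma's fit over 2 pool pairs per lot. Both parvalbumins lie between -2.75 and -1.58. CALCOCO1 lies at -2.41 (Sept.) and -1.37 (Dec.), and calcium binding and coiled-coil domain like at -1.57 (Sept.). Most other probes lie within 1 of 0 and on both sides.

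Fast myofibril genes code for the contractile apparatus of the fibres that hold parvalbumin. The list of such probes was taken by name. Names such as myosin heavy chain and alpha actin do not state a fibre type, so the list may also hold probes of other fibres. Its probes lay on both sides of 0. In the Sept. lot 9 of 21 lay above and 12 below 0 (median -0.11), and in the Dec. lot 9 of 22 above and 13 below (median -0.11). Single members ran from -1.42 to 0.91 and from -2.06 to 1.29. By limma 0 passed at an adjusted p of 0.05 in either lot, where 0% of all probes did. At an unadjusted p of up to 0.05 there were 11 Sept. and 9 Dec. probes, against 3.57% and 15.4% of all probes. The study had listed 19 of the 21 and 20 of the 22 for muscle on these arrays, so these counts are not independent evidence. Of the 2 probes the study had not listed, 0 had such a p in either lot. By pool pair the list's medians ran from -0.20 to -0.036. The members with the largest means carried the same names in both lots but were different probes. A myosin heavy chain probe read -1.42 ± 0.50 for Sept. and another -2.06 ± 0.52 for Dec. fish. An alpha actin probe read -1.35 ± 0.22 in the Sept. lot, and a second one read 1.29 ± 0.19 in the Dec. lot.

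Markers of other tissues that a muscle plug can hold are given as a description, since many were on the study's muscle lists for these arrays. Red blood cell probes had medians of 0.57, 0.63, 0.053 and 3.04 in Sept. pair 1, Sept. pair 2, Dec. pair 1 and Dec. pair 2. Plasma protein probes had medians of 0.65, 1.02, 0.13 and 1.57 in the same order, the last over only 18 of 34 probes. Dec. pair 2, which had the smallest parvalbumin ratios, thus had the highest medians of both lists. Within that pair the plasma median was 3.20 over 34 probes on the array with large fish in Alexa 555, where parvalbumin 2 read -2.26. On the other array, where parvalbumin 2 read -0.16, the plasma median was 0.92 over only 18 probes. These plasma medians therefore do not cover the same probes. The red blood cell median was 2.55 and 3.62 on these arrays. It was only 0.27 on the Dec. array of pair 1 with large fish in Alexa 555, where the parvalbumins read -0.43 and -0.83. Slow (red) muscle probes had medians of 0.56, 0.079, -1.09 and -1.48, on the side of large fish in the Sept. lot and of small fish in the Dec. lot.

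By lot, 12 of 14 red blood cell probes lay above 0 in both lots (medians 0.63 and 1.44). Of the plasma protein probes 30 of 34 lay above 0 among Sept. and 13 of 17 among Dec. fish (medians 0.81 and 0.91). Slow muscle probes lay above 0 for 8 of 11 among Sept. and 1 of 9 among Dec. fish (medians 0.30 and -1.43), and skin probes for 4 of 6 and 4 of 5 (medians 0.42 and 1.15). The members with the largest means in the Dec. lot included a hemoglobin subunit alpha probe at 2.01 ± 0.70, c1 inhibitor at 2.23 ± 0.51 and myosin light chain 3-like at -2.23 ± 0.29. In the Sept. lot they included hemoglobin subunit alpha at 0.83 ± 0.81, complement C1q-like protein 4 precursor at 1.96 ± 0.71 and myozenin-2 at 0.75 ± 0.14. No probe of these lists passed at an adjusted p of 0.05 by limma, where 0% of all probes did. The study had listed 7 of the 14 red blood cell and 30 of the 34 plasma protein probes for muscle on these arrays. It had also listed 9 of the 11 slow muscle and 5 of the 6 skin probes. These medians and counts are thus not independent evidence. Of the red blood cell probes the study had not listed, 6 of 7 lay above 0 in each lot. Among Sept. fish the unlisted plasma protein probes lay above 0 for 4 of 4 and the slow muscle ones for 0 of 2. For Dec. fish 1 unlisted plasma protein probe was measured, at 0.22, and 1 unlisted slow muscle probe, at 0.36. The 8 slow muscle probes below 0 among Dec. fish had all been listed by the study. Their position on the side of small fish thus rests on listed probes alone. The part of these lists in the parvalbumin ratios was not tested.

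**Figure D5:**
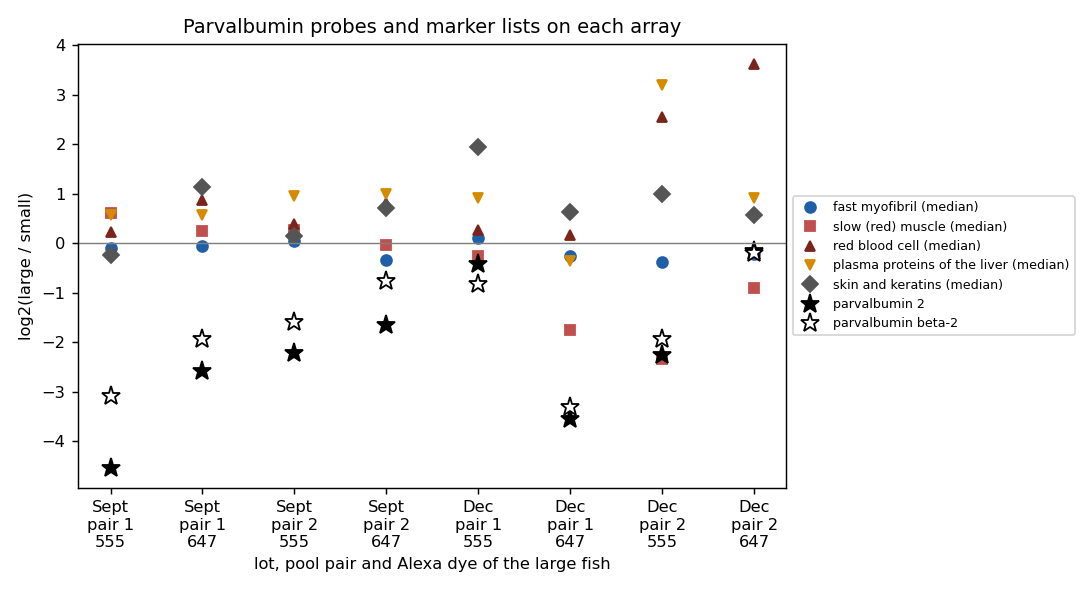
For each array, named by lot, pool pair and the dye of the large fish, the log2(large/small) of both parvalbumins (stars) and the median of 5 marker lists. The parvalbumins lie below the fast myofibril median on 7 of the 8 arrays. On the Dec. array of pair 2 with large fish in Alexa 647 they lie at -0.16 and -0.21 against its -0.22. Red blood cell probes had their highest median on that array, but a median of 0.27 on the Dec. array of pair 1 with large fish in Alexa 555, where parvalbumin 2 lies at -0.43.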

How the data were processed

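White muscle of large and small rainbow trout was measured on 8 arrays, 4 per lot. The deposited values are log2 ratios, 1 column per array, that the authors made by scanning with a GenePix scanner, excluding poor spots by hand, filtering out weak ratios with GeneSpring GX, and lowess normalisation inside and between arrays. No header states the log base, which was taken as 2 from the size of the study's listed differences, and which size stands on top is likely, not stated. Every column was negated. All 8 columns were assigned from their labels, and 0 columns of other samples were present.

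The 60 control features among 43663 rows were dropped. Fitting a probe in a lot required values on its 4 arrays, which left 41524 (Sept.) and 39770 (Dec.) probes, and 38488 had a value on all 8. Names came from the platform annotation (221 probes) and the study's lists (1308), 1494 in all. Arrays of a swap were averaged, and lot means were fitted over 4 pool pairs with limma 3.58.1 in R 4.3.3 (lmFit and eBayes), so that both lots shared the estimate of spread, with Benjamini-Hochberg adjustment over all probes fitted. The dye part was fitted the same way over the 4 pool pairs. Pools hold different fish, but p-values also hold noise between arrays. Scanner intensities were not used here, so the number of arrays limits the precision.

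The members and lists were chosen with earlier results of these data known. The named genes were both parvalbumins, every probe of the calcium list, the 5 named probes nearest to each parvalbumin by root mean square difference, and of each other list the 2 members with the largest means in a lot, of which a part is printed. The lists were taken by name pattern, and 3 probes that a pattern took wrongly were dropped on their names. Same-numbered pools of the lots were checked for pairing: their deviations from the lot means correlated at 0.0731 over 38488 probes, and the numbers were not taken as pairs. The fit was tested on simulated data. RefSeq symbols came from the assembly USDA_OmykA_1.1. Alternatives were centring, scaling, 1 dye orientation, leaving out each pool pair or 1 array, medians, lots fitted alone, a replicate block, unturned swaps, the threshold of the study (1.2-fold at an unadjusted p of up to 0.05) and the methods' t-test.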

Additional observations from a re-analysis of the deposited data

Results flagged for a closer look

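In a group of 4 arrays, a value was singled out when its gap to the nearest other array took up more of the group's range than Dixon's critical value of 0.829. Chance alone gives about 5% of such groups if the 4 arrays are independent, and 41 were tested, over 21 probes. The 2 arrays of a swap share their RNA pools, so that rate is only a guide. For s100 calcium binding protein v2-like in the Dec. lot, the array of pair 2 with large fish in Alexa 647 read 1.01 and its gap was 0.845 of the range. For calcipressin-2-like isoform 2 in the Sept. lot, the array of pair 1 with large fish in Alexa 555 read 0.30 and its gap was 0.834 of the range. Neither parvalbumin was among them.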

How the results depend on the processing

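Of 102 values recomputed under another setting, 11 reversed in sign and 9 moved. The remaining 82 kept their sign and stayed within 1 SD of the pool pairs, or, for the dye part and the calcium list, on the same side of the test's threshold or within 1.5 times the count. That SD is wide, so values among the 82 also changed in size: the Dec. minus Sept. difference was 0.26 for parvalbumin 2 on the arrays with large fish in Alexa 647 and 2.03 on those with Alexa 555, where parvalbumin beta-2 read 0.95, and the dye part of parvalbumin 2 was 0.0094 with scaled arrays. Reading the swapped arrays as not yet turned gave parvalbumin 2 means of -0.63 (Sept.) and 0.26 (Dec.) and parvalbumin beta-2 means of -0.49 and 0.19, by the construction of that reading. Without the Dec. array of pair 1 with large fish in Alexa 647, the Dec. mean of parvalbumin 2 was -0.82. Leaving out each pool pair in turn gave parvalbumin 2 means of -3.56 to -1.93 (Sept.) and -1.99 to -1.21 (Dec.), and parvalbumin beta-2 means of -2.51 to -1.18 and -2.08 to -1.08. It gave Dec. minus Sept. differences of 0.33 to 1.96 for parvalbumin 2 and -0.39 to 0.93 for parvalbumin beta-2, the latter reversing at -0.39 without Sept. pair 1 and at -0.23 without Dec. pair 2, and also at -0.41 on only the arrays with large fish in Alexa 647. A lone pool pair was assumed to vary like the other lot.

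The dye part ran from -0.10 to 0.77 for parvalbumin 2 and from -0.087 to 0.62 for parvalbumin beta-2 without 1 pool pair. It reversed at -0.079 without Sept. pair 1, at -0.10 without Dec. pair 2 and at -0.26 in the Dec. lot alone for parvalbumin 2, and at -0.087 without Dec. pair 2, at -0.19 in the Dec. lot alone and at -0.021 with scaled arrays for parvalbumin beta-2. The 16 other calcium probes had 5 past the study's unadjusted threshold among Sept. and 10 among Dec. fish, against 0 at limma's adjusted threshold. Leaving out a pool pair gave 0 for Sept. and 0 to 1 for Dec. fish, where CALCOCO1 passed without Dec. pair 1 (-1.78, limma, adjusted p = 0.0374). The methods' t-test on pool pairs called 3 of 41524 and 1 of 39770 probes after adjustment, against 0 by limma, and at the study's threshold 252 and 985 against limma's 1157 and 5619. The largest difference between the parvalbumins on an array was 1.46, against a root mean square of 0.710. The difference between the lots in parvalbumin 2 minus parvalbumin beta-2, with settings chosen after seeing the data, was -1.08 on the arrays with large fish in Alexa 555 and -0.67 on those with Alexa 647. The causes of these changes were not tested.

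The labels' pool numbers are shared between the lots. With them as a replicate block, the Dec. minus Sept. difference was 1.15 ± 0.26 for parvalbumin 2 and 0.27 ± 0.15 for parvalbumin beta-2. Same-numbered pools of the lots hold different fish, and their deviations correlated at only 0.0731. The numbers were therefore not taken as pairs, and these smaller SEs do not replace the 0.63 and 0.58 of the main fit.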
